A study of Mus musculus with 14 samples.

Results

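Neural stem cells that had lost Cic were compared with neural stem cells that kept it while both grew with epidermal growth factor (EGF). The comparison uses 7 of the 14 arrays of the series, 3 titled Cic-/- with EGF and 4 titled Cic+/+ with EGF. In the cells without Cic, the oligodendrocyte progenitor receptor gene Pdgfra, the junction gene Ajap1 and the Toll-like receptor chaperone gene Unc93b1 were lower. The beta protocadherins Pcdhb2 and Pcdhb3 were higher. So were the engulfment receptor gene Megf10 and the collagen receptor gene Mrc2, though both lost their calls when any 1 of several clones was left out. Genes of mitosis and DNA replication lay lower as groups without a member passing the test, most of all in 1 of the 3 cultures.

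The cells were taken at postnatal day 4 from the subventricular zone and were grown as neural stem cell cultures in a proliferation medium. Each culture, called a clone here as in the labels, was established from an animal of its own and then transduced with an adenovirus carrying Cre recombinase, and the design text does not set the controls apart from this step. Clones 1 to 4 are Cic+/+ and clones 5 to 7 are Cic-/-, and both groups compared here were kept 24 h with EGF. The other 7 arrays, 4 Cic+/+ and 3 Cic-/-, are the same clones kept 24 h without EGF, and they enter here to estimate the spread and for values set beside those with EGF. Which exons the deleted allele lacks, the strain and whether the Cic+/+ animals carried a floxed allele are not given in any source used here. A culture grown in medium selects the cells that divide there, so it models the tissue only in part.

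Capicua, the product of Cic, is a DNA-binding repressor with an HMG box. It recognises short octamers in promoters and enhancers, recruits deacetylase complexes and works together with the ataxin-1 family proteins ATXN1 and ATXN1L. Receptor tyrosine kinase signalling through RAS and ERK relieves its repression, and genes reported elsewhere as its targets include the ETS factors Etv1, Etv4 and Etv5 and feedback regulators of ERK such as the Sprouty and Dusp genes. In the brain it is known as a gene lost in oligodendroglioma.

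The array reads each gene with several probesets, each a small group of probes within a stretch of the transcript. The level of a gene in an array is the median of the log2 values of the probesets that name that gene alone. A change is the Cic-/- mean minus the Cic+/+ mean, as log2 ± SE from limma, and a gene passed at a Benjamini-Hochberg adjusted p under 0.05 over 17364 genes. The words rose and fell are kept for genes that passed. Beside many of the genes stands how many of its probesets differed in the direction of the gene by at least 50% of its change. The medians of all 14 arrays lay between 6.78 and 6.84, and the pairwise correlations of the 7 arrays with EGF between 0.970 and 0.988. The small number of arrays limits the precision, and log2 levels are not compared between genes.

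Of the 17364 genes, 55 passed (0.317%), of which 13 rose (0.0749%) and 42 fell (0.242%). With each array centred on its median the split was 19 up and 37 down. At an unadjusted p under 0.05 there were 1844 genes (10.6%), 885 higher (5.1%) and 959 lower (5.52%). Counts of list members at that p are to be read against these shares. The median change over all genes tested was 0.02, with quartiles of -0.16 and 0.19. The genotypes had no overlap between arrays in 2035 genes (11.7%), and they did not overlap in any of the 55. The probesets agreed in 25 of the 55, meaning 3 or more probesets with at least 2 in 3 differing as described. Another 6 rest on 1 probeset and 2 rest on 2 probesets, while 22 have 3 or more that did not agree. Without any 1 clone, the same 15 genes passed each time, and these were BC048594, Dad1, Cic, Erdr1, Rps13, Pcdhb2, Rab9b, Ajap1, Pcdhb3, Eif2s2, Hdac1, Unc93b1, Mir139, Pkig and Ppp1r3e. The count was 19 without clone 2, 33 without clone 3 and 26 without clone 4, and between 42 and 60 without any 1 of the others.

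Clone 4 differed from the others in Xist, the RNA that coats the inactive X chromosome. Its level was 4.73 in clone 4 and between 11.98 and 12.57 in the other 6, so no Cic-/- clone resembled clone 4. Genes of neural stem cells and radial glia were well measured in every clone, with 19 of 19 above the limit of 4.40 under which genes were called dim. Their mean level ran from 9.84 to 9.89 in Cic+/+ and from 9.62 to 9.81 in Cic-/-. Lists of markers of cells that a subventricular zone culture could also hold had low mean levels in both genotypes, although most members lay above the dim limit. Above it were 6 of 7 microglia, 5 of 7 endothelial, 5 of 7 pericyte and fibroblast and 5 of 6 ependymal markers. These levels therefore do not show that such cells were absent. For the 7 microglia markers the range was 4.96 to 5.27 in Cic+/+ and 5.16 to 5.38 in Cic-/-, with Aif1 under the dim limit. For the 7 endothelial markers it was 4.86 to 4.99 and 5.01 to 5.27, with Cldn5 and Emcn under the limit and Tek too dim to be tested. The endothelial list also held the VEGF receptor gene Flt1, at a mean of 7.89 in Cic+/+ and 8.59 in Cic-/- with overlapping arrays (0.70 ± 0.34, adjusted p = 0.493). The median change of the 4 tested endothelial genes was 0.51. Pericyte and fibroblast markers ran from 5.05 to 5.27 and from 5.15 to 5.41, with Dcn and Lum under the limit, and ependymal markers from 5.10 to 5.49 and from 5.09 to 5.36. Of the 21 tested genes of these 4 lists, 0 passed by limma, and at an unadjusted p under 0.05 the microglial integrin gene Itgam (0.73) and the endothelial cadherin gene Cdh5 (0.74) lay higher. In bulk samples fewer cells of a type and less RNA per cell cannot be told apart.

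Cic itself was measured first, as a check of the labels. It was at 9.42, 9.41, 9.69 and 9.50 in clones 1 to 4 and at 7.55, 7.67 and 7.40 in clones 5 to 7, a fall of 1.97 ± 0.15 on the log2 scale (adjusted p = 2.18e-05, 14 of 23 probesets). By this gene value the clones within a genotype lay close together and the genotypes lay far apart. The remaining signal is spread unevenly along the 23 probesets. In the order of their numbers, the first 9 differed by -1.10 to 0.77, and 13 of the last 14 differed by -1.94 to -7.01. Among the first 9, clone 6 lay apart from clones 5 and 7 at several probesets. Where the difference was -1.10, clones 5 to 7 were at 9.28, 6.62 and 9.25, so it rests mostly on clone 6. At another they were at 10.15, 7.69 and 9.81, against 8.52 to 8.98 in Cic+/+. At the probeset with the largest difference, the level went from 10.14 in Cic+/+ to 3.13 in Cic-/-. Of the 20 tested genes nearest to Cic in the order of the RefSeq gene table, 10 on each side, 0 passed by limma, and 1 had an unadjusted p under 0.05. That gene was Dedd2, a death effector domain protein gene, at 0.45 ± 0.15 (adjusted p = 0.267), with 3 of 7 probesets behind it.

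**Figure D1:**
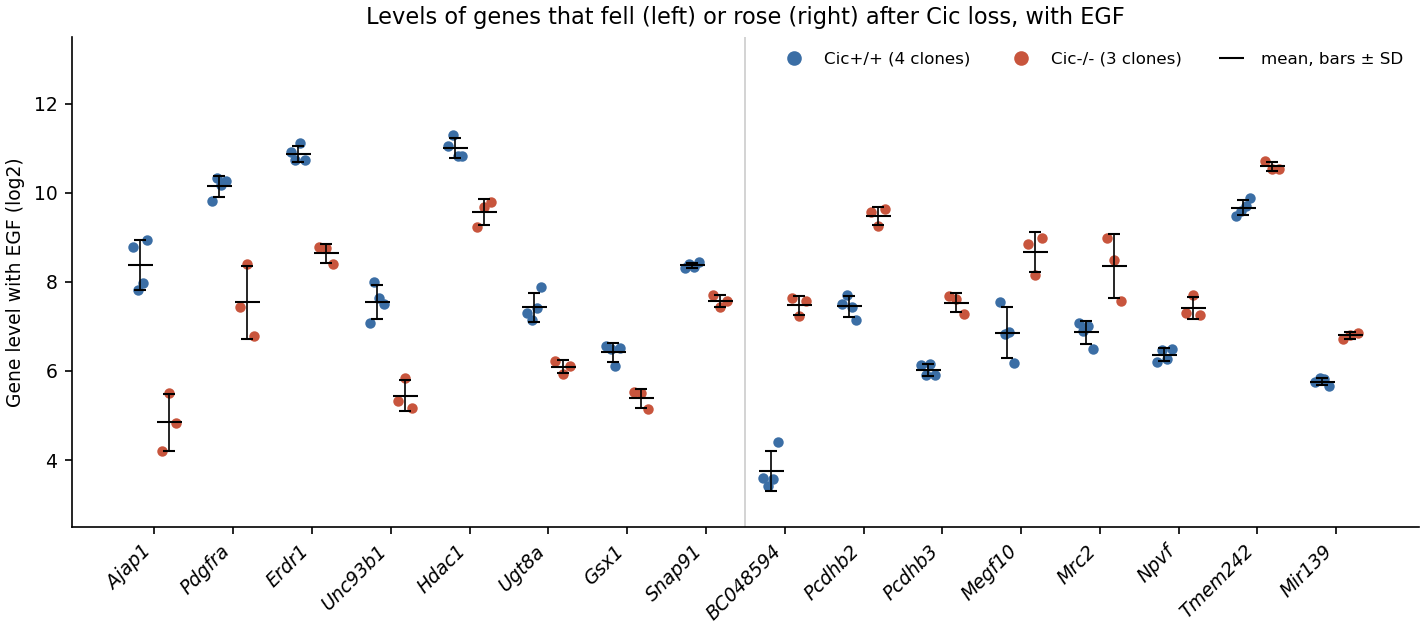
Log2 level with EGF (vertical axis) of 16 genes that passed, 8 that fell on the left and 8 that rose on the right. Each point is 1 array, Cic+/+ clones 1 to 4 in blue and Cic-/- clones 5 to 7 in red, with the mean and SD as bars; the colours do not overlap for any gene, and Pdgfra varies more among the Cic-/- clones (6.78 to 8.40) than among the Cic+/+ clones (9.81 to 10.34).

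Among the 8 genes tested of CIC and its partners, Hdac1 fell beside Cic and Atxn1 lay higher without passing. Hdac1, a histone deacetylase found in corepressor complexes, was at 11.05, 11.30, 10.82 and 10.83 in clones 1 to 4 and at 9.24, 9.67 and 9.80 in clones 5 to 7. The fall was 1.43 ± 0.19 (adjusted p = 0.00411) with 4 of 4 probesets, although their differences ran from -0.72 to -3.72 and the brightest probeset alone gave -0.74 (adjusted p = 0.201). Its relative Hdac2 was at -0.06. Atxn1, the ataxin that stabilises and assists CIC, was at 7.36, 7.34, 7.37 and 7.46 in clones 1 to 4 and at 8.49, 8.45 and 7.92 in clones 5 to 7. Every Cic-/- array lay above every Cic+/+ array, and 9 of 9 probesets lay higher by at least 50% of the change. The change of 0.91 ± 0.19 did not pass (adjusted p = 0.072), but it passed with the mean of the probesets (0.96, adjusted p = 0.0146), the brightest one (1.02, adjusted p = 0.0295) and the median of centred probesets (0.97, adjusted p = 0.0111), and without clone 7 (1.09, adjusted p = 0.0477). Atxn1l, the close relative of Atxn1, was at 0.14 ± 0.16 (adjusted p = 0.817).

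The genes reported elsewhere as CIC targets lay near their Cic+/+ levels in these growing cells. Of 23 measured, 0 passed by limma, 1 lay higher and 2 lower at an unadjusted p under 0.05, and the median change was -0.02, against 0.02 over all genes. Etv4 was at 8.12, 8.33, 8.67 and 8.47 in clones 1 to 4 and at 9.22, 8.55 and 8.22 in clones 5 to 7, so that the high value of clone 5 stood alone (0.27 ± 0.34, and -0.01 without clone 5). Etv5 ran from 11.22 to 11.84 in Cic+/+ and from 11.55 to 11.85 in Cic-/- (0.26 ± 0.19). Etv1 ran from 7.52 to 8.79 and from 7.79 to 8.24 (-0.07 ± 0.29), and its sign turned with the mean of the probesets (0.31). The lowest unadjusted p values belonged to Ptpn9, a tyrosine phosphatase gene, at -0.41 ± 0.17 (adjusted p = 0.397), and Spred2, an inhibitor of RAS and ERK signalling, at 0.32 ± 0.14 (adjusted p = 0.443). In both genes the genotypes had no overlap between arrays.

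CIC octamers were searched in the RefSeq promoter table of GRCm38.p6, which gives 250 bases before to 50 bases after a gene's start. The letters searched were TGAATGAA, TGAATGGA, TCAATGAA and TCAATGGA on both strands, and they occurred in 1260 of 32851 promoters (3.84%). Among the tested genes with a promoter in the table, 434 of 13473 held one (3.22%). Among the genes reported elsewhere as targets it was 6 of 15 with a promoter in the table. Among the genes that passed it was 1 of 5 with a promoter for those that rose, and 0 of 29 for those that fell. At a share of 3.22%, sets as small as those of the genes that passed would hold few or none. Their counts therefore show neither a lack nor an excess. The 6 of 15 among the genes reported elsewhere as targets lay well above the share of 3.22%, a difference that was not tested. The windows below are shown because the first belongs to the 1 gene that rose and holds the letters, and the others to targets among the ERK feedback regulators. Each has 60 bases on the strand of its gene, with the octamer in capitals.
Npvf, chr6:50654571-50654630, minus strand: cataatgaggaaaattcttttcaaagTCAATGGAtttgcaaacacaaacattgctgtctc
Dusp6, chr10:99263171-99263230, plus strand: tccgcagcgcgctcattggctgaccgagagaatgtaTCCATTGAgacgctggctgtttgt
Spry2, chr14:105896840-105896899, minus strand: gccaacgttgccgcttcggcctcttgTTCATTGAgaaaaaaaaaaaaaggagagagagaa
Spred3, chr7:29168648-29168707, minus strand: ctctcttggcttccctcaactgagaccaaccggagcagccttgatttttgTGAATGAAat
In Npvf the octamer starts at position -159 from the gene's start, in Dusp6 at -24, in Spry2 at -54 and in Spred3 at -10. The Dusp6 promoter holds the same letters again at position 2, past the end of the window shown. Dusp6 and Spry2, feedback inhibitors of ERK signalling, were at -0.02 ± 0.36 and -0.23 ± 0.12, and Spred3 was at 0.21 ± 0.11, with adjusted p values of 0.991, 0.532 and 0.535. The centring of the arrays turned the sign of Dusp6 (0.01). Ptpn9, given above at -0.41, also holds TCAATGGA, at position 15 after its start. A match describes letters in a window and does not show binding.

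Npvf, which encodes the precursor of RFamide neuropeptides, rose in all Cic-/- clones. It was at 6.21, 6.47, 6.27 and 6.50 in clones 1 to 4 and at 7.30, 7.71 and 7.26 in clones 5 to 7 (1.06 ± 0.19, adjusted p = 0.0334, 4 of 5 probesets). The gap between the genotypes was larger than the spread within either. The call was lost whichever clone was left out (adjusted p up to 0.175).

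Receptor tyrosine kinases carry growth factor signals into the cell, and in this group Pdgfra, the receptor of oligodendrocyte progenitors for PDGF-A, stood out. It was at 9.81, 10.34, 10.17 and 10.27 in clones 1 to 4 and at 7.44, 8.40 and 6.78 in clones 5 to 7. The change of -2.61 ± 0.38, a fall of 6.09-fold, passed (adjusted p = 0.0082), and 16 of 17 probesets shared it, with -0.70 for the 1 that did not and differences down to -3.51. Clone 6 kept more Pdgfra signal than clones 5 and 7. Without clone 2 or clone 4 the adjusted p was 0.058 and 0.0559, and without clone 6 it was 0.000886. Without EGF the change was -0.55.

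Of the 25 receptor kinases tested, Pdgfra was the 1 that passed, while 4 lay higher and 2 lower at an unadjusted p under 0.05 and the median was 0.12. Tyro3, a receptor of the TAM family, was at 6.35, 6.28, 6.27 and 6.50 in clones 1 to 4 and at 7.54, 7.28 and 7.28 in clones 5 to 7. Every Cic-/- array lay above every Cic+/+ array, and the change of 1.01 ± 0.20 just missed the threshold (adjusted p = 0.0532). It passed with centred arrays (1.05, adjusted p = 0.045) and with quantile normalization (1.04, adjusted p = 0.0421). Egfr, the receptor for the growth factor in the medium, ran from 10.72 to 11.10 in Cic+/+ and from 11.17 to 11.33 in Cic-/- (0.38 ± 0.20, adjusted p = 0.534). Fgfr1 was at -0.26 ± 0.15. Of the 11 PDGF and EGF family ligands tested with the feedback inhibitor Errfi1, 0 passed by limma, 10 lay above 0 and the median was 0.33, with 2 at an unadjusted p under 0.05. These were Pdgfb (0.69 ± 0.23) and Pdgfc (0.59 ± 0.23), with adjusted p values of 0.267 and 0.367 and overlapping arrays. Pdgfa, the main ligand of the receptor, was at 0.19 ± 0.22, and at -0.02 with the median of centred probesets.

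No other gene of oligodendrocyte progenitors passed. Of 17 tested, Pdgfra fell. At an unadjusted p under 0.05, 5 in all lay lower and 1 higher, where 5.52% and 5.1% of all genes tested did. In 5 of the 17 every Cic-/- array lay below every Cic+/+ array, where 1026 of all genes did (5.91%). The median was -0.17, with 12 members below 0 and 5 above. Without clone 5 it was -0.50 and without clone 7 it was -0.11. Sox10, a transcription factor that drives the lineage, was at 7.14, 7.11, 7.64 and 7.00 in clones 1 to 4 and at 5.02, 6.51 and 5.56 in clones 5 to 7. The genotypes did not overlap, but the Cic-/- clones were far apart (-1.53 ± 0.43, adjusted p = 0.177), and without clone 6 it passed (-1.93, adjusted p = 0.0146). Olig2, a lineage factor that these stem cells also express, ran from 12.47 to 12.59 in Cic+/+ and from 12.03 to 12.40 in Cic-/- (-0.30 ± 0.14, adjusted p = 0.46). Cspg4, which encodes the NG2 proteoglycan, was at -0.17 ± 0.39, with overlapping arrays. The progenitor genes therefore did not share the size of the Pdgfra change.

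Among 16 genes of myelinating oligodendrocytes, Ugt8a alone fell. It encodes the enzyme that makes galactosylceramide, a lipid of myelin. It was at 7.30, 7.13, 7.41 and 7.88 in clones 1 to 4 and at 6.23, 5.94 and 6.10 in clones 5 to 7 (-1.34 ± 0.24, adjusted p = 0.0334, 5 of 7 probesets). The 3 Cic-/- clones lay close together. It passed only without clone 1 when a clone was left out (adjusted p up to 0.149 without the others), and the brightest probeset gave -0.29 (adjusted p = 0.628). The tight junction gene of myelin Cldn11 was at -0.93 ± 0.26 (adjusted p = 0.174) and Mbp, myelin basic protein, at -0.61 ± 0.32 (adjusted p = 0.532). At an unadjusted p under 0.05, 3 of the 16 lay lower and 1 higher. The median was -0.15, with 11 below 0 and 5 above. The largest change of the list went the other way. It was Aspa at 1.47, from 5.25 to 6.88 in Cic+/+ and from 6.48 to 8.66 in Cic-/-, with overlapping arrays.

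Gsx1, which encodes a homeobox factor of the ventral forebrain, was the 1 of 20 regional transcription factors that passed. It was at 6.55, 6.48, 6.11 and 6.52 in clones 1 to 4 and at 5.52, 5.51 and 5.14 in clones 5 to 7, with clone 3 lowest among the controls. The fall of 1.03 ± 0.17 (adjusted p = 0.022, 3 of 4 probesets) was lost without clones 2, 4, 6 or 7 (adjusted p up to 0.105). Its relative Gsx2 was at -0.53 ± 0.24 (adjusted p = 0.461), and 0.36 with the brightest probeset.

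Stem cell, astrocyte and neuron genes held 0 passing members of 19, 16 and 17 by limma, and 1, 5 and 5 at an unadjusted p under 0.05. In the stem cell list Hes5, a Notch effector, was at 9.05, 9.10, 9.44 and 9.27 in clones 1 to 4 and at 8.76, 7.28 and 7.78 in clones 5 to 7 (-1.28 ± 0.38, adjusted p = 0.207). Clone 5 lay near the controls and clones 6 and 7 far below. Nes, the stem cell intermediate filament nestin, was at -0.20 ± 0.43, Sox2, a stem cell transcription factor, at -0.16 ± 0.18, and Slc1a3, the glial glutamate transporter GLAST, at -0.38 ± 0.18. The list median was -0.16.

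The astrocyte list held 7 genes below 0 and 9 above, with a median of 0.11, or 0.26 without clone 3. Aldh1l1, a folate enzyme gene that marks astrocytes, ran from 10.65 to 11.14 in Cic+/+ and from 10.13 to 10.31 in Cic-/- (-0.74 ± 0.18, adjusted p = 0.122). Id3, an inhibitor of bHLH factors, was at -0.97 ± 0.24 (adjusted p = 0.13), while Gfap varied by more than 2 log2 units among the Cic-/- clones, from 6.43 to 9.02 (-1.05 ± 0.77). On the other side Fgfr3, a growth factor receptor of astrocytes named after its value was seen, ran from 8.53 to 9.58 in Cic+/+ and from 9.94 to 10.21 in Cic-/- (0.99 ± 0.29, adjusted p = 0.199). In the neuron list Cd24a, a surface protein of neuroblasts, ran from 10.43 to 10.75 in Cic+/+ and from 11.23 to 11.24 in Cic-/- (0.68 ± 0.20, adjusted p = 0.212). Gap43, a growth cone protein, was at 0.66 ± 0.22 and the neuroblast microtubule protein gene Dcx at -1.50 ± 0.50, with adjusted p values of 0.267 and 0.273. The markers of neuroblasts and neurons thus lay on both sides of 0, with a median of 0.07.

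**Figure D2:**
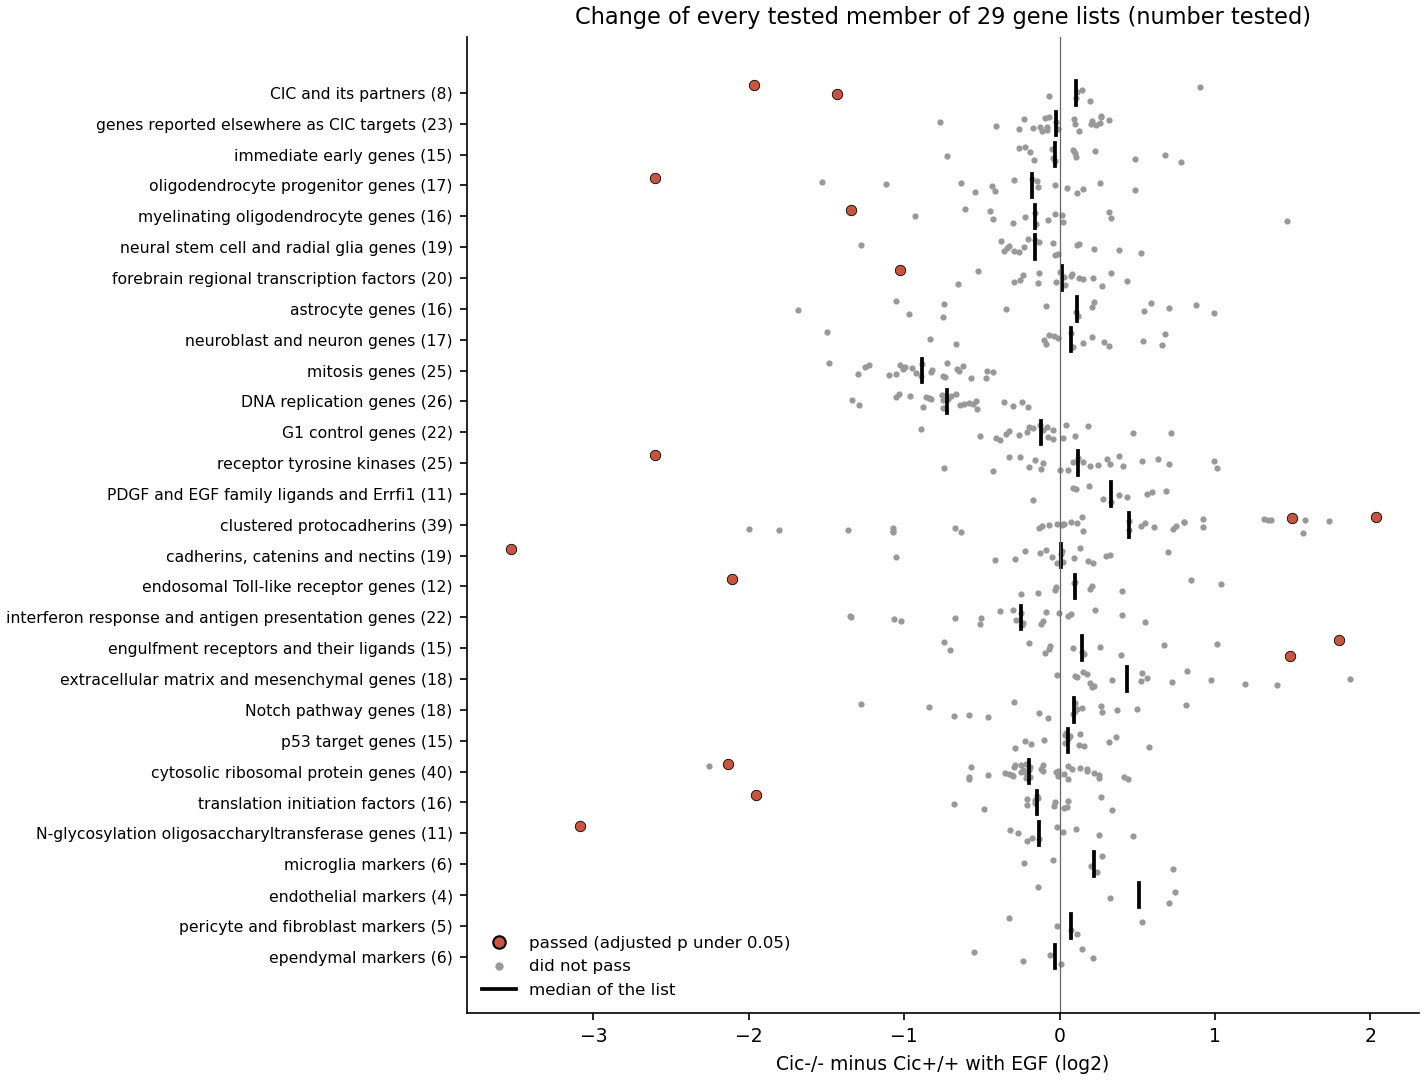
Changes of all tested members of 29 gene lists (horizontal axis, log2 Cic-/- minus Cic+/+ with EGF), with the number tested beside each list name. Red points passed the test, grey points did not, and the black bar is the median of the list; the mitosis and DNA replication lists lie wholly below 0, while each of the other lists holds points on both sides.

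Genes of cell division lay lower in Cic-/- as groups, and clone 5 lay lowest. All 25 mitosis genes tested were below 0, against 8215 of all genes tested (47.3%), with a median of -0.88. None passed by limma, 11 had an unadjusted p under 0.05, and in 13 every Cic-/- array lay below every Cic+/+ array, where 1026 of all genes did (5.91%). The list had a median level of 8.87, 9.43, 8.72 and 9.51 in clones 1 to 4 and of 7.35, 8.70 and 8.82 in clones 5 to 7. Clone 7 lay inside the range of the controls and clone 6 just under it. Without clone 5 the median change was -0.49, with 25 of 25 still below 0, 0 passing by limma and 12 at an unadjusted p under 0.05. The genes of 1 list are not independent measurements.

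Aurkb, the mitotic kinase aurora B, was at 9.87, 10.69, 10.03 and 10.48 in clones 1 to 4 and at 7.87, 9.02 and 9.45 in clones 5 to 7 (-1.49 ± 0.39, adjusted p = 0.152). Birc5, which encodes survivin, its partner in the chromosomal passenger complex, was at 7.38, 7.75, 7.51 and 7.76 and at 6.27, 6.74 and 6.64 (-1.05 ± 0.26, adjusted p = 0.121). In both genes the genotypes did not overlap and clone 5 was lowest. Cdk1, the kinase that drives entry into mitosis, overlapped, since clone 6 at 9.89 lay among the controls (-0.73 ± 0.36, adjusted p = 0.493).

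All 26 DNA replication genes tested were below 0, with a median of -0.73 and 0 passing by limma. At an unadjusted p under 0.05, 10 lay lower, where 959 of all genes tested did (5.52%). In 3 of the 26 every Cic-/- array lay below every Cic+/+ array, where 1026 of all genes did (5.91%). The list had a median level of 8.41, 8.78, 7.88 and 8.55 in clones 1 to 4 and of 6.96, 8.25 and 8.15 in clones 5 to 7. Clones 6 and 7 lay within the range of the controls and clone 5 far below it. Without clone 5 the median was -0.31, with 24 of 26 below 0, 0 passing by limma and 4 at an unadjusted p under 0.05, and this last count was 6 without clone 2, 19 without clone 3 and 16 without clone 7. Mcm2, a subunit of the replicative helicase, was at 9.16, 9.58, 8.69 and 9.49 and at 6.72, 8.97 and 8.91 (-1.03 ± 0.51, adjusted p = 0.499). Pcna, the sliding clamp, was at -0.67 ± 0.39, the helicase cofactor Gins1 at -1.34 ± 0.39 and the DNA ligase Lig1 at -0.75 ± 0.22, with adjusted p values of 0.576, 0.196 and 0.195.

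**Figure D3:**
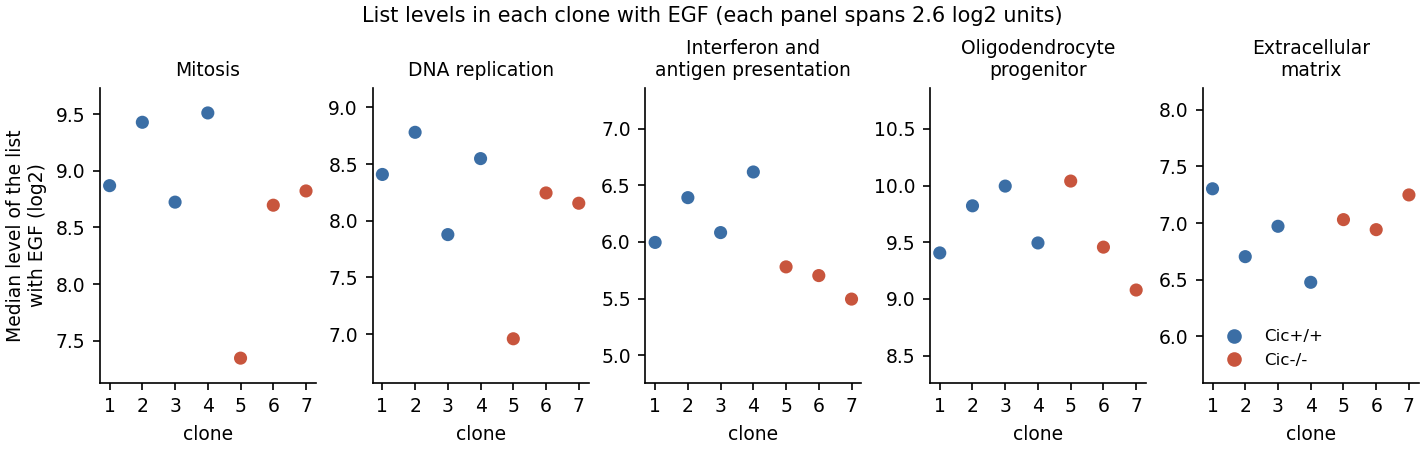
Median log2 level of 5 gene lists with EGF (vertical axis) in each of 7 clones (horizontal axis), with Cic+/+ clones 1 to 4 in blue and Cic-/- clones 5 to 7 in red. Clone 5 is lowest for mitosis (7.35) and DNA replication (6.96), and for interferon response genes all 3 Cic-/- clones (5.50 to 5.78) lie below the 4 Cic+/+ clones (6.00 to 6.62).

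Several genes used in division passed singly, and these belong to no list above. Nusap1, which bundles spindle microtubules, was at 9.47, 10.21, 9.92 and 10.27 in clones 1 to 4 and at 7.94, 8.55 and 8.03 in clones 5 to 7 (-1.80 ± 0.29, adjusted p = 0.0145). The size of that fall rests on some probesets more than others, with 6 of 13 and differences from -0.45 to -3.93. It was at -1.04 with centred probesets (adjusted p = 0.169) and at -0.45 with the brightest (adjusted p = 0.53), and the call was lost without clones 2, 3 or 4 (adjusted p up to 0.0851). H2bc3, a histone H2B gene of the replication-dependent cluster, was at 9.51, 10.17, 9.96 and 9.81 and at 8.29, 8.50 and 7.95 (-1.62 ± 0.28, adjusted p = 0.0261, 2 of 3 probesets). It lost its call without clones 2, 3, 5 or 7 (adjusted p up to 0.119). Hjurp, the chaperone that places the centromeric histone CENP-A, fell by 0.99 ± 0.19 from 1 probeset (adjusted p = 0.0464), and Timeless, a replication fork protein gene, by 0.81 ± 0.15 (adjusted p = 0.04). Timeless lost its call without any 1 clone (adjusted p up to 0.159) and Hjurp without each but clone 3 (up to 0.202).

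The regulators of G1 lay lower by less than the genes of mitosis and DNA replication. Of 22 G1 control genes tested, 16 were below 0, against 47.3% of all genes tested, with a median of -0.12. None passed by limma, and 1 lay higher and 0 lower at an unadjusted p under 0.05. Cyclin D1, the product of Ccnd1, which growth factors induce, was at 12.76, 12.59, 12.38 and 12.75 in clones 1 to 4 and at 11.99, 12.66 and 12.83 in clones 5 to 7 (-0.13 ± 0.41), with clone 5 again alone. The inhibitor genes Cdkn2a and Cdkn2b, neighbours that encode p16 and ARF and p15, had every Cic-/- array above every Cic+/+ array, at 0.47 ± 0.18 and 0.72 ± 0.35 (adjusted p = 0.365 and 0.489). Cdkn1a, the p53 target that encodes p21, was at 0.04 ± 0.20, and of 15 p53 targets 0 passed by limma and 1 lay lower at an unadjusted p under 0.05. Of 15 immediate early genes 0 passed by limma and 3 had an unadjusted p under 0.05. Fos ran from 9.50 to 10.23 in Cic+/+ and from 8.55 to 10.73 in Cic-/- (-0.22 ± 0.46), Egr1 was at -0.26 ± 0.15 and Ier2 at -0.72 ± 0.23 (adjusted p = 0.255), while the pluripotency factor gene Klf4 was at 0.78 ± 0.29 (adjusted p = 0.345).

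Adhesion genes changed in both directions. Ajap1, which encodes a transmembrane protein of adherens junctions, was at 8.78, 7.81, 7.97 and 8.95 in clones 1 to 4 and at 4.21, 5.50 and 4.83 in clones 5 to 7. The fall of 3.53 ± 0.45, or 11.6-fold, passed (adjusted p = 0.0032) with 7 of 8 probesets, and the same size was measured without EGF (-3.53). Clone 5 lay under the dim limit of 4.40, so the size is not exact there. Of the 19 cadherins, catenins and nectins tested, no other passed. The classical cadherin gene Cdh2 was at 0.13 ± 0.15, beta-catenin, the product of Ctnnb1, at -0.09 ± 0.13, and Cdh6 at 0.70 ± 0.18 (adjusted p = 0.136), with every Cic-/- array above every Cic+/+ array.

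The clustered protocadherins are neuronal and glial adhesion molecules encoded in 3 neighbouring clusters, alpha, beta and gamma, from which single cells use different members. Pcdhb2 was at 7.51, 7.70, 7.44 and 7.14 in clones 1 to 4 and at 9.58, 9.24 and 9.62 in clones 5 to 7 (2.03 ± 0.22, adjusted p = 0.00077, 3 of 3 probesets). Its neighbour Pcdhb3 was at 6.13, 5.91, 6.17 and 5.92 and at 7.68, 7.62 and 7.28 (1.50 ± 0.19, adjusted p = 0.00337, 3 of 3 probesets). Both rose with little spread within a genotype. They were the 2 that passed of the 39 clustered protocadherins tested, around a median of 0.45, or 0.24 without clone 7. At an unadjusted p under 0.05, 12 of the 39 lay higher and 4 lower, where 5.1% and 5.52% of all genes tested did.

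The beta members numbered 2 to 11 lay above 0 together, a stretch picked out after the values were seen. Their 10 changes ran from 0.45 to 2.03 with a median of 1.43. In 7 of the 10 every Cic-/- array lay above every Cic+/+ array, a count that the choice of the stretch favours. Of all 22 beta members tested, 19 lay above 0, with a median of 0.68. Over all 22 the arrays lay apart in this way in 7, and over all genes tested in 1009 (5.81%). The 8 beta members numbered 15 to 22 had a median of 0.02 and ran from -0.12 to 0.55. Numbers 1, 12, 13 and 14, in neither stretch, were at 0.14, 0.07, 0.80 and 0.80. Pcdhb11 was at 1.74 ± 0.42 (adjusted p = 0.121), Pcdhb6 at 1.32 ± 0.28 (adjusted p = 0.0691), Pcdhb9 at 1.58 ± 0.38 (adjusted p = 0.121) and Pcdhb4 at 1.50 ± 0.47 (adjusted p = 0.237). Pcdhb6 passed with the median of centred probesets (1.52, adjusted p = 0.0373) and with the mean of the probesets (1.58, adjusted p = 0.0229). The clones differed here too: Pcdhb4 was at 9.90 in clone 5, 7.90 in clone 6 and 8.72 in clone 7, against 7.00 to 7.65 in the controls. The 3 alpha members tested lay above 0, from 0.53 to 0.75. The 14 gamma members went both ways, with 5 above 0, a median of -0.65 and a range from -2.0 for Pcdhga7 (± 0.60, adjusted p = 0.212) to 1.57 for Pcdhgb8 (± 0.44, adjusted p = 0.175). Pcdhga10 was at -1.81 ± 0.46 (adjusted p = 0.137, 4 of 4 probesets). The members are similar in sequence, so probes of 1 may read another.

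**Figure D4:**
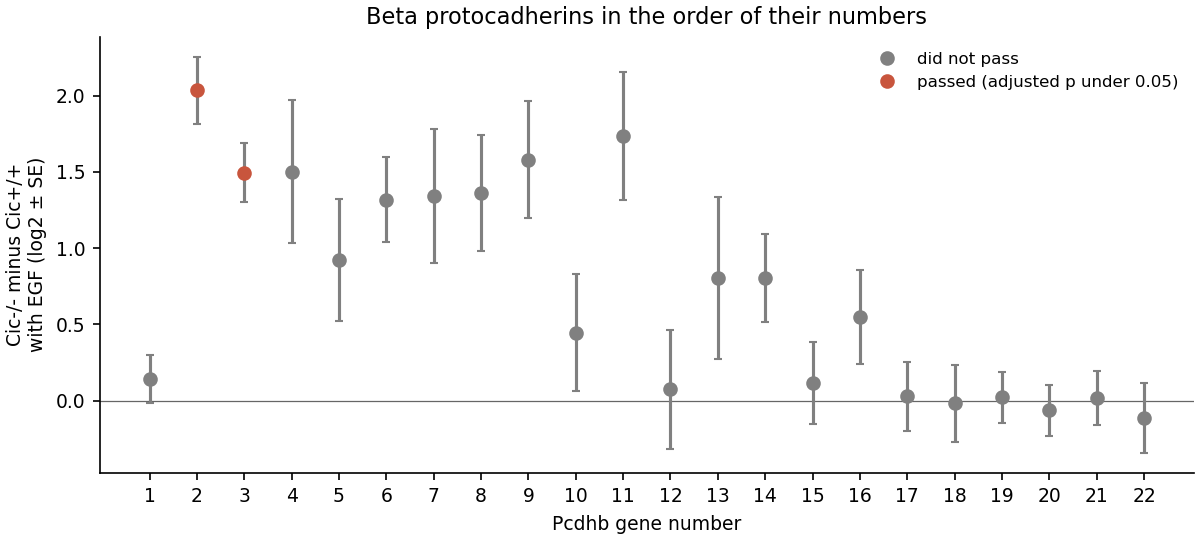
Change of each beta protocadherin with EGF (vertical axis, log2 Cic-/- minus Cic+/+ ± SE from limma) in the order of the gene numbers 1 to 22 (horizontal axis). The 2 red points, Pcdhb2 (2.03) and Pcdhb3 (1.50), passed, members 2 to 11 lie above 0, and members 17 to 22 lie close to 0.

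Of the engulfment genes, Megf10 and Mrc2 rose. Megf10, a receptor by which glia engulf debris and synapses, was at 7.56, 6.84, 6.88 and 6.17 in clones 1 to 4 and at 8.85, 8.15 and 8.98 in clones 5 to 7 (1.80 ± 0.33, adjusted p = 0.0334, 20 of 22 probesets). Mrc2, the endocytic collagen receptor Endo180, was at 7.09, 6.89, 7.00 and 6.49 and at 8.98, 8.50 and 7.57 (1.48 ± 0.27, adjusted p = 0.0334, 19 of 23 probesets). The gap was narrow in places: clone 7 had the lowest Cic-/- level of Mrc2, and clone 1 the highest Cic+/+ level of Megf10. Megf10 lost its call without clones 2, 3, 5 or 7 (adjusted p up to 0.138) and Mrc2 without each clone but clone 7 (up to 0.175). Fitted in the arrays with EGF alone, neither passed (adjusted p = 0.076 and 0.131). With the brightest probeset Megf10 was at 1.07 and Mrc2 at 0.71 (adjusted p = 0.148 and 0.388), and with centred probesets Mrc2 was at 1.31 (adjusted p = 0.0707). Of 15 engulfment genes tested these were the 2 that passed, with 3 higher and 2 lower at an unadjusted p under 0.05 and a median of 0.14. Mertk, a TAM receptor like Tyro3, was at -0.74 ± 0.33 (adjusted p = 0.443).

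Of 18 matrix and mesenchymal genes tested, 17 lay above 0 with a median of 0.43, and 0 passed by limma. At an unadjusted p under 0.05, 6 lay higher, where 885 of all genes tested did (5.1%). In 4 of the 18 every Cic-/- array lay above every Cic+/+ array, where 1009 of all genes did (5.81%). Col6a1, a collagen VI chain gene, was at 8.97, 6.81, 7.98 and 7.43 in clones 1 to 4 and at 10.09, 9.30 and 9.61 in clones 5 to 7 (1.87 ± 0.46, adjusted p = 0.129). The controls spread widely, and without clone 1 it passed (2.26, adjusted p = 0.0354). Fibronectin, the product of Fn1, ran from 11.14 to 12.04 in Cic+/+ and from 12.30 to 12.62 in Cic-/- (0.82 ± 0.32, adjusted p = 0.375, 41 of 41 probesets). Thbs1, thrombospondin 1, was at 1.20 ± 0.39 (adjusted p = 0.267). The pericyte and fibroblast markers, 2 of which are in the matrix list, had a median of 0.07 and had the levels given above. Without clone 1 the list held 2 passing members, and without any other 1 clone 0 passed by limma.

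Unc93b1, the chaperone that carries Toll-like receptors to endosomes, fell, and a receptor it carries did not pass. It was at 7.08, 8.0, 7.64 and 7.49 in clones 1 to 4 and at 5.34, 5.84 and 5.16 in clones 5 to 7 (-2.11 ± 0.28, adjusted p = 0.00452). Of its 13 probesets, 8 in a row by number differed by -2.17 to -5.03, while 2 before them and 3 after them differed by -0.15 to -0.85. The fall thus lies in 1 stretch of its probesets. Tlr3, the endosomal receptor of double-stranded RNA, was at 9.30, 9.37, 9.30 and 9.24 in clones 1 to 4 and at 9.94, 9.98 and 10.53 in clones 5 to 7 (0.85 ± 0.26, adjusted p = 0.227, 9 of 9 probesets). Of 12 genes of endosomal Toll-like receptors tested, Unc93b1 was the 1 that passed, and the median was 0.10.

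Interferon response genes lay lower in all 3 Cic-/- clones. The 22 tested had a median level of 6.00, 6.39, 6.08 and 6.62 in clones 1 to 4 and of 5.78, 5.70 and 5.50 in clones 5 to 7. The median change was -0.25, with 17 below 0 and 0 passing by limma. At an unadjusted p under 0.05, 5 lay lower, where 959 of all genes tested did (5.52%). In 9 of the 22 every Cic-/- array lay below every Cic+/+ array, where 1026 of all genes did (5.91%). Ifi44, an interferon-induced gene, was at 5.49, 6.80, 6.07 and 6.46 in clones 1 to 4 and at 4.98, 4.50 and 5.08 in clones 5 to 7 (-1.35 ± 0.27, adjusted p = 0.0532). Oasl2, an antiviral gene of the 2'-5' oligoadenylate synthetase family, was at 5.63, 6.26, 5.66 and 6.98 and at 4.77, 4.59 and 5.01 (-1.34 ± 0.28, adjusted p = 0.0632). With clones as blocks Oasl2 passed (adjusted p = 0.0479), and Ifi44 passed without clone 1 (-1.59, adjusted p = 0.0119). Ifit1 was at -0.30 ± 0.18. The brightest probesets gave a list median of -0.09.

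Of 18 Notch pathway genes 0 passed by limma, with 2 higher and 4 lower at an unadjusted p under 0.05. The lower ones included 2 glycosyltransferases that modify Notch receptors. Lfng, lunatic fringe, was at 11.20, 11.19, 11.09 and 11.13 in clones 1 to 4 and at 10.40, 10.57 and 10.74 in clones 5 to 7 (-0.58 ± 0.16, adjusted p = 0.175). Mfng, manic fringe, was at -0.68 ± 0.18 (adjusted p = 0.15), again with no overlap between genotypes. Notch1 was at -0.30 ± 0.19.

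BC048594, an unnamed transcript, had the largest rise. It was at 3.61, 3.42, 3.59 and 4.42 in clones 1 to 4 and at 7.64, 7.22 and 7.56 in clones 5 to 7 (3.72 ± 0.27, adjusted p = 1.85e-05, 3 of 3 probesets). The controls lay at or under the dim limit of 4.40, so the size of the rise is not exact. Among the other rises, BC029722 went from 6.80, 6.88, 7.08 and 7.56 to 8.78, 8.25 and 8.10 (1.30 ± 0.23, adjusted p = 0.0271, 1 probeset). Tmem242, which encodes a membrane protein, was at 9.49, 9.60, 9.70 and 9.88 in clones 1 to 4 and at 10.72, 10.54 and 10.54 in clones 5 to 7 (0.93 ± 0.15, adjusted p = 0.0186, 6 of 7 probesets). BC029722 lost its call without clones 1, 2, 3, 5 or 6 (adjusted p up to 0.128) and Tmem242 without clones 2, 5 or 6 (up to 0.092).

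The smaller rises were small against what the summary of the probesets can shift. Dysf, whose product dysferlin acts in membrane repair, was at 5.66, 5.37, 5.29 and 5.24 in clones 1 to 4 and at 6.09, 6.42 and 6.29 in clones 5 to 7 (0.87 ± 0.16, adjusted p = 0.0382, 28 of 47 probesets). Dpy19l4, of a family of mannosyltransferases, was at 8.01, 7.86, 8.05 and 8.07 and at 9.0, 8.77 and 8.63 (0.80 ± 0.15, adjusted p = 0.0464). Eid2b, of a family of differentiation inhibitors, was at 8.32, 8.15, 8.31 and 8.32 and at 8.89, 8.80 and 9.18 (0.68 ± 0.13, adjusted p = 0.0455). With the brightest probeset Dysf was at -0.17, and Dpy19l4 and Eid2b did not pass (adjusted p = 0.168 and 0.48). Dpy19l4 and Eid2b also did not pass in the fit with clones as blocks (adjusted p = 0.0555 and 0.0546). Arfgef2, an exchange factor gene for ARF GTPases, rose by 0.64 ± 0.12 (adjusted p = 0.0365, 20 of 29 probesets). When a clone was left out, Dysf passed only without clone 1 (adjusted p up to 0.182 otherwise), and the other 3 lost their calls whichever clone it was (up to 0.18).

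Mir139, the gene of a brain microRNA, rose from a single probeset. It was at 5.75, 5.84, 5.81 and 5.65 in clones 1 to 4 and at 6.72, 6.81 and 6.86 in clones 5 to 7 (1.04 ± 0.14, adjusted p = 0.00452), and the 7 arrays formed 2 tight groups. The array reads the gene and not which mature strand is made. Both mature strands are given from RefSeq on GRCm38.p6, since the seed (bases 2 to 8, in capitals) is what pairs with targets.
mmu-miR-139-5p, chr7:101475382-101475403, plus strand: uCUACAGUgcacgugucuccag
mmu-miR-139-3p, chr7:101475418-101475439, plus strand: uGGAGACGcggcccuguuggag
The 2 strands have different seeds. Pde2a, the phosphodiesterase gene in which this microRNA lies, was looked up after the values were seen and was at 0.34 ± 0.52 (adjusted p = 0.873, 23 of 27 probesets), with overlapping arrays.

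**Figure D5:**
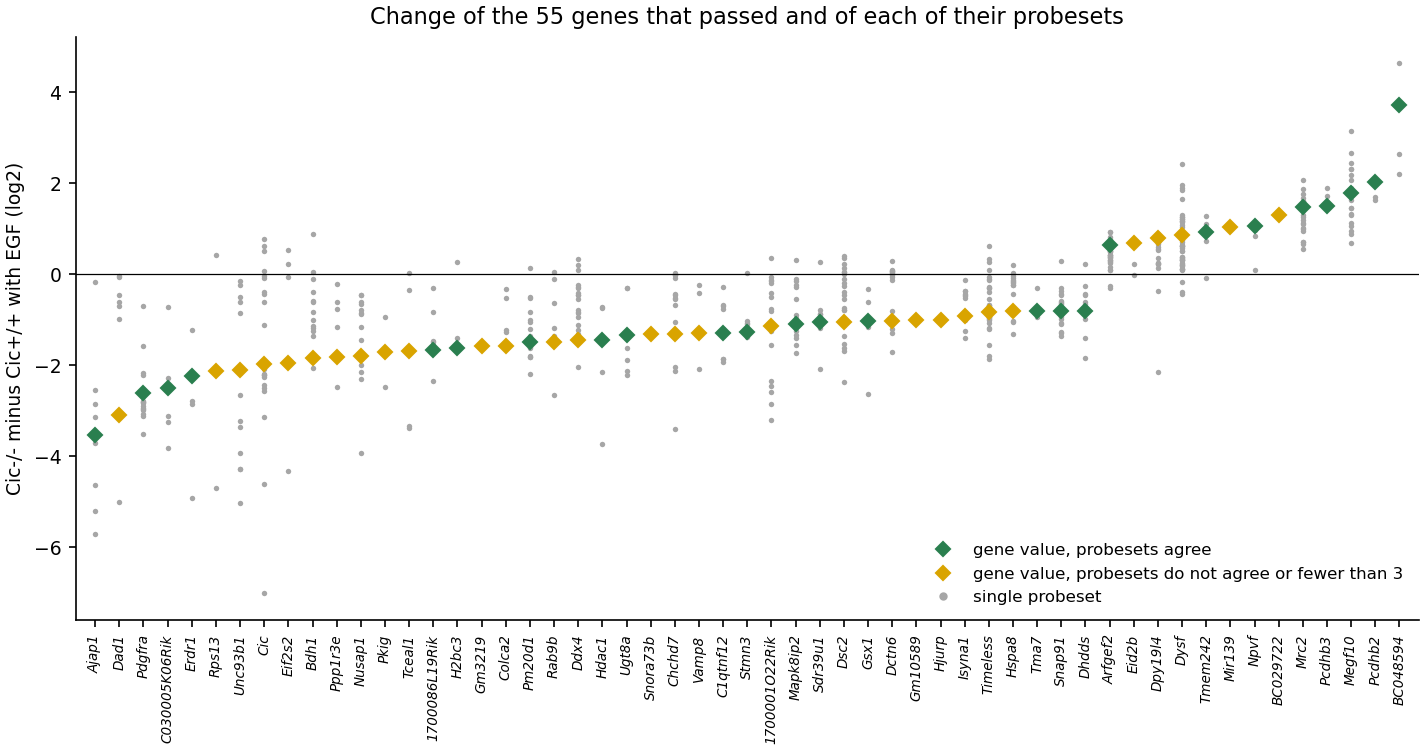
Change of the 55 genes that passed (diamonds, green where the probesets agreed and yellow where they did not or were fewer than 3) and of each of their probesets (grey points), as log2 Cic-/- minus Cic+/+ with EGF (vertical axis). The diamonds of Dad1, Rps13 and Eif2s2 lie far from most of their points, with 1 probeset at -5.00, -4.69 and -4.33.

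Several of the largest falls rest on a minority of the probesets. Dad1, a subunit of the oligosaccharyltransferase, was at 11.34, 11.95, 11.11 and 11.35 in clones 1 to 4 and at 8.42, 8.20 and 8.43 in clones 5 to 7 (-3.08 ± 0.23, adjusted p = 1.85e-05). One of its 7 probesets differed by -5.00 and the other 6 by -0.04 to -0.98, and with the median of centred probesets the change was -0.53 (adjusted p = 0.162). Rps13, a protein of the small ribosomal subunit, was at 7.69, 7.87, 7.75 and 8.24 and at 5.52, 5.66 and 6.10 (-2.13 ± 0.22, adjusted p = 0.000365), where 1 of 2 probesets differed by -4.69 and the other by 0.43. Eif2s2, the beta subunit of the initiation factor eIF2, was at 9.30, 9.30, 8.98 and 8.66 and at 7.24, 6.99 and 7.08 (-1.95 ± 0.26, adjusted p = 0.00401). There 1 of 4 probesets differed by -4.33 and the rest by -0.06 to 0.55, and the centred median gave 0.0013. In these genes the 3 Cic-/- clones lay close together. The other probesets of Rps13 and Eif2s2 did not share the fall, while those of Dad1 were all lower, by less. With the mean of the probesets Dad1 still passed by limma (-1.12, adjusted p = 0.00351) and Eif2s2 did not (-0.91, adjusted p = 0.133).

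Each list of their partners held 1 gene that passed. Of 11 oligosaccharyltransferase genes, Dad1 was the 1 that passed, and the median was -0.13. Of 16 translation initiation factors Eif2s2 was the 1, with a median of -0.14, which turned to 0.16 without clone 5. Of 40 cytosolic ribosomal protein genes Rps13 was the 1, 6 lay lower at an unadjusted p under 0.05 and the median was -0.19. Without clone 5 that median was -0.09, with 11 lower and 2 higher. Rps6, from 1 probeset, was at 8.11, 8.07, 7.72 and 7.72 in clones 1 to 4 and at 5.41, 6.64 and 4.90 in clones 5 to 7 (-2.26 ± 0.50, adjusted p = 0.0909), and it passed in the fit with clones as blocks (adjusted p = 0.0474) and without clone 6 (-2.75, adjusted p = 0.00168). The tested gene next to Rps13 in the RefSeq order, the predicted gene Gm10589, also fell (1.01 ± 0.17, adjusted p = 0.0242, 1 probeset), though not without clones 2, 4, 5 or 7 (adjusted p up to 0.119).

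Erdr1, first described as a regulator of erythroid differentiation, fell at every probeset. It was at 10.90, 10.74, 11.12 and 10.74 in clones 1 to 4 and at 8.79, 8.75 and 8.40 in clones 5 to 7 (-2.23 ± 0.20, adjusted p = 7.82e-05), and its 5 probesets differed by -1.21 to -4.91. The unnamed transcripts C030005K06Rik and 1700086L19Rik fell by 2.50 ± 0.49 (adjusted p = 0.0496, 6 of 7 probesets) and 1.66 ± 0.29 (adjusted p = 0.0271, 4 of 6 probesets). C030005K06Rik was at 6.89, 8.40, 7.54 and 7.40 in clones 1 to 4 and at 4.31, 4.78 and 6.09 in clones 5 to 7, and 1700086L19Rik at 6.50, 6.30, 5.97 and 6.41 and at 4.70, 4.85 and 4.36. The first passed only without clone 7 when a clone was left out (adjusted p up to 0.202), and the second lost its call without clones 1, 2, 4 or 6 (up to 0.109).

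Metabolic and signalling genes were among the falls too. Bdh1, the mitochondrial enzyme that interconverts ketone bodies, was at 7.39, 7.82, 8.30 and 8.20 in clones 1 to 4 and at 6.46, 6.00 and 5.82 in clones 5 to 7 (-1.83 ± 0.35, adjusted p = 0.0464, 6 of 13 probesets). Ppp1r3e, which targets protein phosphatase 1 to glycogen, was at 7.25, 7.81, 7.43 and 7.23 and at 5.64, 6.14 and 5.10 (-1.80 ± 0.26, adjusted p = 0.00796, 2 of 5 probesets). Pkig, an inhibitor of cAMP-dependent protein kinase, was at 9.13, 8.73, 8.44 and 8.17 and at 6.65, 6.86 and 7.23 (-1.70 ± 0.24, adjusted p = 0.00588, 2 of 2 probesets). Bdh1 differed least between clones of the 2 genotypes, with 6.46 in clone 5 and 7.39 in clone 1, and it lost its call without clones 2, 3, 4, 5 or 6 (adjusted p up to 0.179). Its fall was also smaller in the other summaries of the probesets, with -0.92 for centred probesets (adjusted p = 0.297), -0.73 for the mean (adjusted p = 0.364) and -1.01 for the brightest (adjusted p = 0.428). Ppp1r3e was at -1.06 with centred probesets (adjusted p = 0.0741) and at -0.76 with the brightest (adjusted p = 0.339), and Pkig at -0.93 with the brightest (adjusted p = 0.182). Without EGF Pkig was at -0.39 and Bdh1 and Ppp1r3e at -1.89 and -1.61.

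Genes of vesicles and trafficking were among the falls as well, grouped here after their values were seen. Tceal1, of the transcription elongation factor A family, and Rab9b, a GTPase of late endosomes, lie 3 tested genes apart in the RefSeq order. Tceal1 was at 6.62, 6.24, 6.19 and 7.18 in clones 1 to 4 and at 4.90, 4.89 and 4.86 in clones 5 to 7 (-1.67 ± 0.26, adjusted p = 0.013, 2 of 4 probesets), and it lost its call without clone 6 (adjusted p = 0.058). Rab9b fell by 1.48 ± 0.17 (adjusted p = 0.000919, 3 of 6 probesets). Vamp8, a SNARE of endosome fusion, fell by 1.29 ± 0.20, Snap91, a clathrin assembly protein of synaptic vesicles, by 0.80 ± 0.12 with 17 of 20 probesets, and the dynactin subunit Dctn6 by 1.02 ± 0.19. With the brightest probeset Rab9b was at -0.10 (adjusted p = 0.88), Vamp8 and Snap91 did not pass (adjusted p = 0.832 and 0.148), and Dctn6 turned to 0.05. With centred probesets Rab9b was at -0.93 (adjusted p = 0.0618), Vamp8 at -0.86 (adjusted p = 0.0991) and Dctn6 at -0.07 (adjusted p = 0.821). Without a clone, Vamp8 lost its call for clones 2, 4 or 6 (adjusted p up to 0.0727), Snap91 for clones 2 or 6 (up to 0.0665) and Dctn6 for each but clone 7 (up to 0.198).

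The remaining falls ran from -0.79 for Dhdds, an enzyme of dolichol synthesis, to -1.57 for Gm3219. Agreeing probesets were found in C1qtnf12, a secreted C1q family protein (-1.28 ± 0.20, adjusted p = 0.013, 10 of 11), Pm20d1, a secreted enzyme of N-acyl amino acids (-1.48 ± 0.27, adjusted p = 0.0334, 13 of 16), and Mapk8ip2, a JNK scaffold (-1.08 ± 0.19, adjusted p = 0.0271, 10 of 15). They were also found in Stmn3, a stathmin of neurons (-1.27 ± 0.22, adjusted p = 0.0234, 4 of 5), in Dhdds (-0.79 ± 0.15, adjusted p = 0.0487, 9 of 11), in Sdr39u1 (-1.05 ± 0.20, adjusted p = 0.0487, 6 of 7) and in Tma7 (-0.80 ± 0.15, adjusted p = 0.0409, 2 of 3). C1qtnf12 lost its call without clones 3 or 5 (adjusted p up to 0.0659), and the other 6 of these without 5 or more of the 7 clones (up to 0.193). Hspa8, the constitutive HSP70 chaperone, fell by 0.81 ± 0.13 (adjusted p = 0.0133), but the centred median gave -0.28 (adjusted p = 0.348), and the call was lost without clones 2, 4, 5 or 6 (adjusted p up to 0.0821). The other genes of this range were Snora73b, Colca2, Ddx4, Chchd7, 1700001O22Rik, Dsc2 and Isyna1, and with Gm3219 each of them lost its call without at least 2 of the clones. With clones as blocks Ddx4 and Tma7 did not pass (adjusted p = 0.0541 and 0.0555). In 4 of the genes that fell, the Cic-/- mean lay under the dim limit, so their sizes are not exact.

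The summary of the probesets decided some calls. With the median taken after each probeset was centred on its mean, 49 genes passed, 33 of them among the 55, and 20 of the 25 with agreeing probesets were kept. Of the genes described above, 1700086L19Rik, Dysf, Dpy19l4, Eid2b, Arfgef2, Timeless, Dhdds and Tma7 also did not pass with centred probesets (adjusted p from 0.0583 to 0.265). With the brightest probeset H2bc3, Tmem242, Arfgef2, Stmn3, Pm20d1, Mapk8ip2, Sdr39u1, Dhdds and Tma7 did not pass (adjusted p from 0.0775 to 0.727), and Timeless turned to 0.28 (adjusted p = 0.749). Another 15 genes with 3 or more probesets passed with centred probesets and not with the plain median. The 6 with the largest changes were Fndc1, a fibronectin domain protein (1.88, adjusted p = 0.0349, against 1.48 and 0.191 with the plain median), Pcdhb6, 2210016F16Rik (-1.21, adjusted p = 0.0373), Commd7, Gadd45a and Pik3cg. Commd7, of the COMMD family, was at -1.15 (adjusted p = 0.000682), against -0.34 (adjusted p = 0.42) with the plain median. Gadd45a, a growth arrest and DNA damage gene, was at 1.01 (adjusted p = 0.0414, against 0.63 and 0.507), and Pik3cg, a catalytic subunit of phosphoinositide 3-kinase, at 1.00 (adjusted p = 0.026, against 1.34 and 0.0552).

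The genotype differences were set beside those of the same clones without EGF, where 96 genes passed (0.553%). Of the 55 genes, 53 had the same sign there and 29 also passed. The media share no array, but the clones are the same. Differences between the media were tested for every gene, and 1 passed (0.00576%), or 7 with clones as blocks. The 1 gene was Enpp6, a phosphodiesterase of newly formed oligodendrocytes. It was at 5.21, 4.97, 4.70 and 5.07 in clones 1 to 4 with EGF and at 4.32, 4.55 and 4.76 in clones 5 to 7 (-0.45 ± 0.21, adjusted p = 0.461), close to the dim limit in all of them. Without EGF the change was -3.95, and the difference of the changes was 3.50 ± 0.29 (adjusted p = 0.000147). For Pdgfra, at -2.61 with EGF and -0.55 without, the difference of -2.05 ± 0.54 did not pass by limma (adjusted p = 0.99996). That fit did not pair the 2 arrays of a clone, so it does not show that the medium made no difference. Clones 5 to 7 were at 7.44, 8.40 and 6.78 with EGF and at 8.56, 10.17 and 9.28 without. Clones 1 to 4 were at 9.81, 10.34, 10.17 and 10.27 with EGF and at 10.05, 10.15, 9.32 and 10.04 without.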

How the data were processed

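Affymetrix probeset values were analysed for 14 arrays, 7 of them with EGF. The deposited values are log2 intensities that the authors made with RMA, per the submitters' processing notes; of its version and the probesets' genome build nothing is stated in those sources. RMA corrects background, equalises the arrays and summarises probes, so a difference shared by most genes would be removed. Of 269751 probesets, 233753 name 1 gene in the platform annotation, 5106 name several and 30892 are unnamed here. The former give 23152 genes with a median of 8 probesets, and 2319 rest on 1. The RefSeq table of GRCm38.p6 held 20875 of the symbols, 2189 were updated through synonyms and 88 kept.

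Gene levels are medians over probesets. The 25% of genes with the lowest mean (5788, up to a log2 level of 4.40) were left out. The other 17364 were fitted with limma 3.58.1 in R 4.3.3, with 4 group means over the 14 arrays, which share 1 estimate of the spread, and no block. The p-values were adjusted after Benjamini and Hochberg. The same clones gave arrays in both media, but each clone has 1 array within the genotype comparison. Deviations of the 2 arrays of a clone from their group means correlated with r = 0.474, 0.323, 0.459, 0.337, 0.584, 0.156 and 0.616 for clones 1 to 7, all over 0.1, so the clone numbers pair the arrays across media. The arrays that give the spread are thus not all independent. The fit with clone as a random block (consensus correlation 0.348) is an alternative. Another is the fit to the 7 arrays with EGF alone, where 29 of the 55 genes passed.

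The comparison, its members and the 30 gene lists were chosen with earlier results of these data known. Genes that passed could be named, with levels for the 12 largest rises, the 16 largest falls and passing list members. Of each list the first 3 members, passing members and the 2 with the lowest unadjusted p could be named, beside Cic, Atxn1, Atxn1l, the Etv genes and Xist, the 10 genes on each side of Cic as counts, and the 6 largest changes among genes passing with centred probesets but not with the plain median. Other genes were chosen after their values were seen: Pcdhb4, Pcdhb6, Pcdhb9, Pcdhb11, Pcdhga7, Pcdhga10, Pcdhgb8, Spry2, Dusp6, Spred3, Dedd2, Pde2a, Enpp6, Fgfr3 and Hdac2. So were Aspa and the beta protocadherins numbered 1, 12, 13 and 14.

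Alternatives were other summaries of the probesets, other filters, a trended prior, other scalings, the block, the arrays with EGF alone and each clone left out in both media, which drops 2 arrays. The scripts were tested on simulated data. Figures were drawn with matplotlib 3.10.9.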

Additional observations from a re-analysis of the deposited data

Results flagged for a closer look

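In 5 of 128 genes checked (3.91%), 1 of the 4 Cic+/+ arrays with EGF stood apart from the other 3 by Dixon's test, and chance gives about 1 in 20. Xist was at 4.73 in clone 4 and from 11.98 to 12.40 in the other controls, and Eif2s3y (8.60), Kdm5d (8.47) and Uty (8.0), which are Y-linked, were highest there. Gsx1 was at 6.11 in clone 3, against 6.48 to 6.55, and its fall holds without clone 3. Eid2b was at 8.15 in clone 2, against 8.31 to 8.32. Fos was at 10.23 in clone 3, against 9.499 to 9.59. Klf4 was at 5.92 in clone 4, against 6.59 to 6.71. For Enpp6 the genotype difference depended on the medium by the test of that difference itself, which was 3.50 ± 0.29 (limma, adjusted p = 0.000147), with all 3 Cic-/- arrays without EGF below all 4 Cic+/+ arrays.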

How the results depend on the processing

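Cic fell under every alternative run, from -1.64 to -2.21, and from -1.90 to -2.03 when a clone was left out. The count of 55 genes was 25 with only genes whose probesets agree. It ran from 19 to 60 when a clone was left out, and from 39 to 81 under the other alternatives: 81 with the mean of the probesets, 66 with the brightest, 49 with centred probesets, 46 without the dim filter and 39 in the arrays with EGF alone. With the clone as a replicate block 63 passed, 51 of them among the 55, and beyond the 6 calls given above for Oasl2, Rps6, Dpy19l4, Eid2b, Ddx4 and Tma7 it changed no other call of a gene named here. Of the 55 genes, 40 passed with the mean of the probesets, 33 with centred probesets, 21 with the brightest, 29 in the arrays with EGF alone and 9 under all alternatives run for them. Genes not passing in the arrays with EGF alone included Megf10, Mrc2, Gsx1 and Snap91 (adjusted p = 0.076, 0.131, 0.0585 and 0.0585). The 1 gene differing between media was 2 with the mean of the probesets, 0 with the brightest probeset, 0 with the lowest 50% left out, 7 with the replicate block and 1 to 3 when a clone was left out. Signs turned with the brightest probeset for Ctnnb1 (0.21), Dctn6 (0.053), Ddx4 (0.22), Dedd2 (-0.16), Dusp6 (0.014), Dysf (-0.17), Eif2s2 (0.55), Enpp6 (0.23), Etv1 (0.19), Gsx2 (0.36), Nes (0.067), Ptpn9 (0.077), Sox2 (0.024) and Timeless (0.28). They turned with centred probesets for Atxn1l (-0.0069), Eif2s2 (0.0013), Etv1 (0.19) and Pdgfa (-0.016), with the mean of the probesets for Etv1 (0.31) and Pdgfa (-0.0096), and with centred arrays for Dusp6 (0.014). With a clone left out the range crossed 0 for Ccnd1 (-0.30 to 0.12), Cdkn1a (-0.058 to 0.13), Cspg4 (-0.50 to 0.13), Ctnnb1 (-0.18 to 0.027), Dusp6 (-0.15 to 0.24), Etv1 (-0.26 to 0.16), Etv4 (-0.012 to 0.49), Fos (-0.84 to 0.24), Nes (-0.39 to 0.15) and Pde2a (-0.069 to 0.77). List medians moved by more than the spread between clones in 54 combinations of list and alternative, over 21 of the 30 lists. The cause was not tested. With 3 clones against 4, a p that misses the threshold does not show that levels were alike, and levels near the dim limit of 4.40 are compressed. Whether the clones were cultured or hybridised together is not stated in any source used here, and such batches and genotype cannot be told apart.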
